A study of Homo sapiens
Mus musculus with 8 samples.

Results

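The genes described here encode the light chain and heavy chains of MHC class I and proteins that load peptide onto it, in 2 mouse and 2 human lymphocyte lines. They were listed by name, with no measured value in the rule but with earlier results of these data known: B2m, H2-K1, H2-D1, Tap1 and Tapbp for the mouse lines, and B2M, HLA-B, HLA-C and TAP1 for the human lines. They are 9 of the 60736 genes counted, 5 of 27998 mouse genes and 4 of 32738 human genes. The study mixed the 4 lines in equal parts and made droplet single-cell RNA-seq libraries of the mixture with 3 Chromium kits, to compare methods. In the study's terms, EL4 is a mouse CD4 T cell line, IVA12 a mouse B cell line, Jurkat a human CD4 T cell line and TALL-104 a human CD8 T cell line. TALL-104 is the smallest of the lines, and the study's methods state that it was grown with the cytokine IL-2, which was not stated for the others. Each line is 1 culture line with no treatment, genotype change or time course, so it stands for that line and not for T or B cells in general. The 3′ v3 kit has 4 libraries, 5′ v1 has 2 and 3′ v2 has 1 (replicate 2, since replicate 1 was not analysed here). The study's sample table gives the cell mixture of each library: replicates 1 and 3 of 3′ v3 came from mixture F, replicates 2 and 4 from mixture G, both 5′ v1 libraries from mixture B and the 3′ v2 library from mixture A.

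MHC class I carries peptides from inside the cell to its surface, where CD8 T cells read them. A heavy chain (H2-K and H2-D in mouse, HLA-B and HLA-C among those in human) folds with the light chain, beta-2 microglobulin, in the endoplasmic reticulum. Peptides are cut by the proteasome, which holds other subunits in immune cells, pumped in by the TAP transporter and fitted by tapasin, the product of Tapbp, and nearly all nucleated cells make these parts, with lymphocytes among the highest. Interferon and the activator NLRC5 raise the whole set together.

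Levels are given as CPM, the UMIs of a gene per 1000000 UMIs of its species in 1 line of 1 library, where UMIs are unique molecular identifiers, 1 for each captured RNA molecule. A barcode was taken as a cell at 1000 UMIs or more, with over 80% of them from 1 species. The lines were then told apart by 10 genes, none of which is described here, and 27505 of 32377 barcodes were named: 10905 EL4, 5829 IVA12, 8105 Jurkat and 2666 TALL-104. TALL-104 was the thinnest, with 30 to 1050 barcodes in a library and a median of 1929 to 2761.5 UMIs in a barcode, against 10075 to 31126 in the other lines. Of the lines' own marker genes, the 6 T cell markers of EL4 summed to 1440 to 1925 CPM in EL4 and to 4 to 35.7 in IVA12, and the 9 B cell markers of IVA12 to 2063 to 5134 in IVA12 and 8.06 to 115 in EL4. IVA12 had Jchain, Cd79b, Ms4a1 and Sdc1, but Cd79a and Pax5 were below 1 CPM. The 8 markers of TALL-104 summed to 2546 to 9026 in TALL-104 and 21.5 to 71.1 in Jurkat, and the 7 of Jurkat, which hold the CD3 genes of both lines, to 2140 to 2941 in Jurkat and 1953 to 2790 in TALL-104. CD4 was at most 3.74 CPM in Jurkat, and CD8B was at most 4.72 in TALL-104 and at 2.53 to 9.45 in Jurkat. Of 10 human markers of myeloid, fibroblast and erythroid cells, only FCER1G, which cytotoxic lymphocytes use as well, was above 15 CPM in TALL-104, at 271 to 572. The 10 summed to 282 to 572 in TALL-104 and 2.53 to 7.9 in Jurkat, with LYZ at 0 in TALL-104. The 10 such mouse markers summed to 3.22 to 7.48 CPM in EL4 and to 9.05 to 36.7 in IVA12, and Hbb-bs was at 0 in both. Replicate 3 of 3′ v3 stood apart: 1896 of its barcodes held both species, and its TALL-104 barcodes had a median of 15.3% mouse UMIs, against 0.921% to 6.65% in the other libraries. Any 2 libraries shared at most 24 named barcodes.

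The total behind a level was lowest for TALL-104, at 92258 to 2105302 UMIs, and at least 2898380 for the other lines. No annotation of the builds used for counting was at hand, so no positions are given.

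B2m and the heavy chain genes H2-K1 and H2-D1 were higher in EL4 than in IVA12, by a fitted 2.73-fold, 3.85-fold and 5.01-fold. Tap1, which encodes a chain of the peptide transporter, was 1.83-fold higher in EL4. Tapbp ran the other way and was 1.92-fold lower. These directions were the same in each of the 7 libraries. Some libraries share a cell mixture, yet the line tests below take all 7 as independent, so their p-values and SEs can be too small.

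B2m (ENSMUSG00000060802) stood in EL4 at 1073 CPM in 3′ v2, at 1271 and 1141 in 5′ v1, and at 1290, 1300, 1215 and 1156 in 3′ v3. In IVA12 it stood at 676 in 3′ v2, at 636 and 601 in 5′ v1, and at 485, 316, 449 and 292 in 3′ v3. The lines did not overlap, EL4 varied little (1207 ± 86.2, SD, n = 7 libraries), and IVA12 varied more (493 ± 153), with replicates 2 and 4 of 3′ v3 lowest. The fitted log2 difference was 1.45 ± 0.15 (SE), with an adjusted p of 6.83e-06 in edgeR's quasi-likelihood test.

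H2-K1 (ENSMUSG00000061232), 1 of the classical heavy chains, stood in EL4 at 426 in 3′ v2, at 624 and 553 in 5′ v1, and at 852, 752, 902 and 713 in 3′ v3. In IVA12 it stood at 170 in 3′ v2, at 222 and 202 in 5′ v1, and at 291, 112, 267 and 114 in 3′ v3. Every EL4 value was above every IVA12 value, and replicates 2 and 4 of 3′ v3 were the lowest in IVA12 while 3′ v2 was the lowest in EL4. The log2 difference of H2-K1 was 1.94 ± 0.17 (SE), with an adjusted p of 2.07e-06 in edgeR.

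H2-D1 (ENSMUSG00000073411), the other classical heavy chain counted here, stood in EL4 at 544 in 3′ v2, at 700 and 677 in 5′ v1, and at 703, 680, 771 and 618 in 3′ v3. In IVA12 it stood at 105.6 in 3′ v2, at 165 and 138 in 5′ v1, and at 226, 97.5, 225 and 98 in 3′ v3. The lines again did not overlap, and the 3′ v3 values of IVA12 fell into 2 pairs, replicates 1 and 3 above replicates 2 and 4. For H2-D1 the log2 difference was 2.33 ± 0.14 (SE), with an adjusted p of 1.48e-07 in edgeR. H2-K1, H2-D1 and the H2-Q genes are close in sequence, as are HLA-B and HLA-C. Only reads that align to 1 gene are counted, so how reads divide between these genes is uncertain. Whether they divide alike in each line was not tested. All lines were aligned to the same combined reference, and whether each line's alleles of these genes match it equally well was not tested. Line differences of these genes carry both limits. A ratio of 2 of them is given below to compare lines, not genes.

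Tap1 stood in EL4 at 20.2 in 3′ v2, at 34.9 and 34.1 in 5′ v1, and at 38.4, 51.6, 40.8 and 46.8 in 3′ v3. In IVA12 it stood at 13.8 in 3′ v2, at 25.8 and 27.1 in 5′ v1, and at 24.5, 19.3, 24.1 and 19.4 in 3′ v3. It was the only mouse gene of the 5 whose ranges over all libraries overlapped, because the EL4 value of 3′ v2 lay among the IVA12 values, yet within each library EL4 was 1.26-fold to 2.67-fold higher. The fitted log2 difference of Tap1 was 0.87 ± 0.12 (SE), with an adjusted p of 7.37e-05 in edgeR.

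Tapbp, the gene of tapasin, which holds the empty heavy chain at the transporter, stood in EL4 at 24.2 in 3′ v2, at 33.8 and 33.7 in 5′ v1, and at 38, 41, 35.9 and 37 in 3′ v3. In IVA12 it stood at 77.3 in 3′ v2, at 100 and 106.3 in 5′ v1, and at 66.1, 54.5, 58.8 and 52.6 in 3′ v3. IVA12 was above EL4 throughout, by the widest margin in 3′ v2 and 5′ v1. On the log2 scale Tapbp differed by -0.94 ± 0.16 (SE, EL4 minus IVA12), with an adjusted p of 0.000277 in edgeR.

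**Figure D1:**
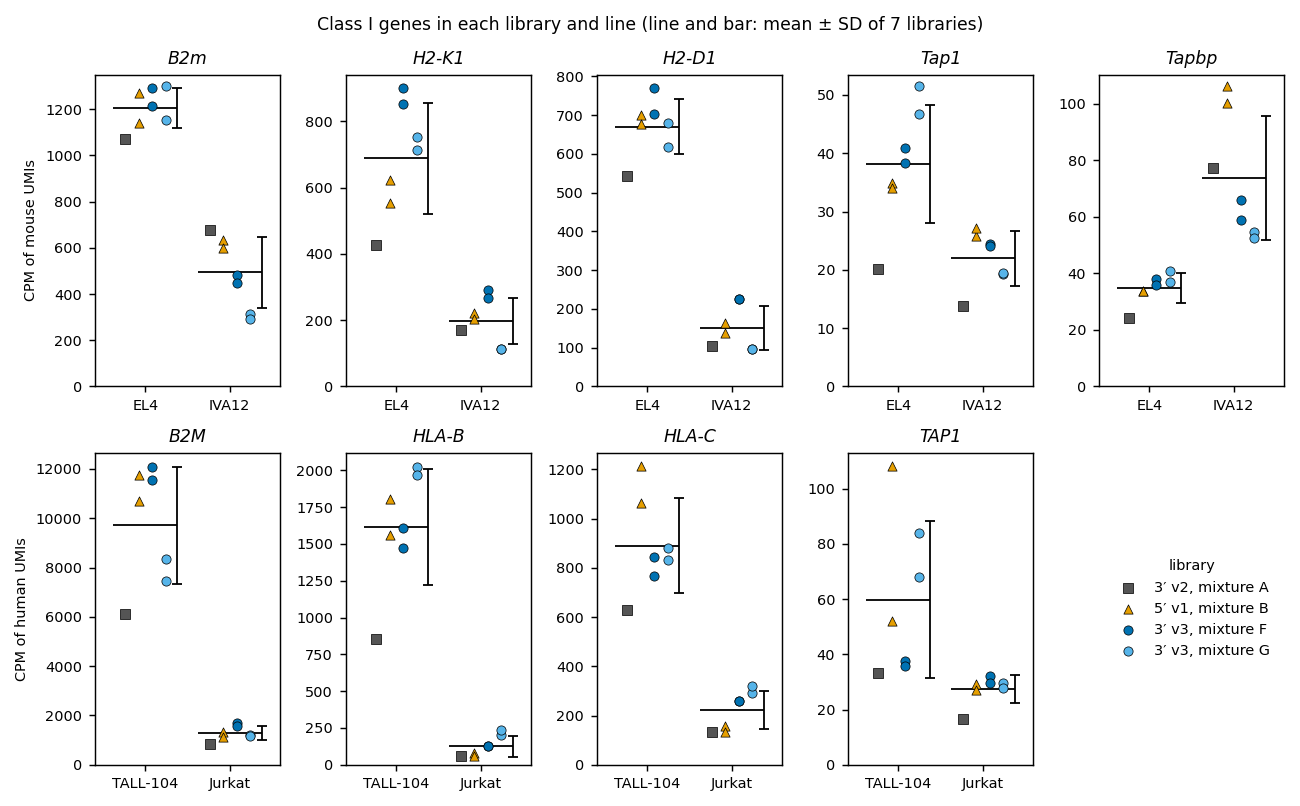
Level of each class I gene, in CPM on linear axes that start at 0, for each of 7 libraries (points, coloured by kit and cell mixture) and both lines of a species, with the mean ± SD of the 7 libraries (line and bar). The 7 EL4 values of B2m lie between 1073 and 1300, above the IVA12 values of 292 to 676, Tapbp runs the other way, and the TALL-104 values of B2M, HLA-B and HLA-C lie far above those of Jurkat.

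All 5 mouse genes passed an adjusted p of 0.05, but so did 77% of the 11734 mouse genes tested, 39% higher and 37.9% lower in EL4. The count is therefore no result about these genes, and their sizes say more. The absolute log2 difference of H2-D1 was larger than that of 80.3% of the genes tested, of H2-K1 than 77.5%, of B2m than 71.7%, of Tapbp than 59.6% and of Tap1 than 56.9%. The median over all genes was 0.71. Each gene kept its direction and passed the test in all 18 alternative fits.

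In the human lines all 4 genes differed in 1 direction. By the fitted difference TALL-104, the cytotoxic line, had 7.77-fold more B2M, 14.5-fold more HLA-B, 4.25-fold more HLA-C and 2.03-fold more TAP1 than Jurkat. The median ratios in CPM over the libraries were 7.19, 12.7, 3.27 and 2.02. The 4 genes together made up 0.765% to 1.48% of the human UMIs of TALL-104 and 0.106% to 0.212% of those of Jurkat.

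B2M (ENSG00000166710) stood in TALL-104 at 6129 in 3′ v2, at 11764 and 10698 in 5′ v1, and at 12071, 8326, 11541 and 7458 in 3′ v3. In Jurkat it stood at 852 in 3′ v2, at 1343 and 1144 in 5′ v1, and at 1702, 1210, 1555 and 1177 in 3′ v3. Both lines were lowest in 3′ v2, and within a library the ratio was steady, from 6.33-fold to 9.35-fold. The fitted log2 difference of B2M was 2.96 ± 0.15 (SE), with an adjusted p of 7.04e-15 in edgeR.

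HLA-B (ENSG00000234745) stood in TALL-104 at 854 in 3′ v2, at 1808 and 1561 in 5′ v1, and at 1609, 2020, 1469 and 1969 in 3′ v3. In Jurkat it stood at 57.1 in 3′ v2, at 77.1 and 58.7 in 5′ v1, and at 127, 204, 128 and 239 in 3′ v3. The lines did not come near each other in any library, and Jurkat was higher in all 3′ v3 libraries than in the other 3. For HLA-B the log2 difference was 3.86 ± 0.19 (SE), with an adjusted p of 2.07e-15 in edgeR, and by library it ran from 8.23-fold to 26.6-fold.

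HLA-C (ENSG00000204525) stood in TALL-104 at 630 in 3′ v2, at 1213 and 1062 in 5′ v1, and at 768, 881, 843 and 834 in 3′ v3. In Jurkat it stood at 135 in 3′ v2, at 159 and 132 in 5′ v1, and at 260, 293, 258 and 319 in 3′ v3. TALL-104 was highest in 5′ v1 where Jurkat was among its lowest, so the ratio was 2.61-fold at the least and 8.06-fold at the most. The log2 difference was 2.09 ± 0.18 (SE), with an adjusted p of 1.42e-10 in edgeR.

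TAP1 (ENSG00000168394), the transporter gene, stood in TALL-104 at 33.2 in 3′ v2, at 51.9 and 108 in 5′ v1, and at 37.7, 84.1, 35.6 and 68 in 3′ v3. These levels rest on few molecules, 4 UMIs in 3′ v2, 11 and 10 in 5′ v1, and 47, 56, 75 and 98 in 3′ v3. In Jurkat TAP1 stood at 16.4 in 3′ v2, at 29.1 and 27.2 in 5′ v1, and at 32.1, 29.8, 29.6 and 27.9 in 3′ v3. Replicates 1 and 3 of 3′ v3 were barely above Jurkat and replicates 2 and 4 clearly so. The log2 difference was 1.02 ± 0.18 (SE), with an adjusted p of 1.56e-05 in edgeR, and by library it ran from 1.17-fold to 3.99-fold.

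**Figure D2:**
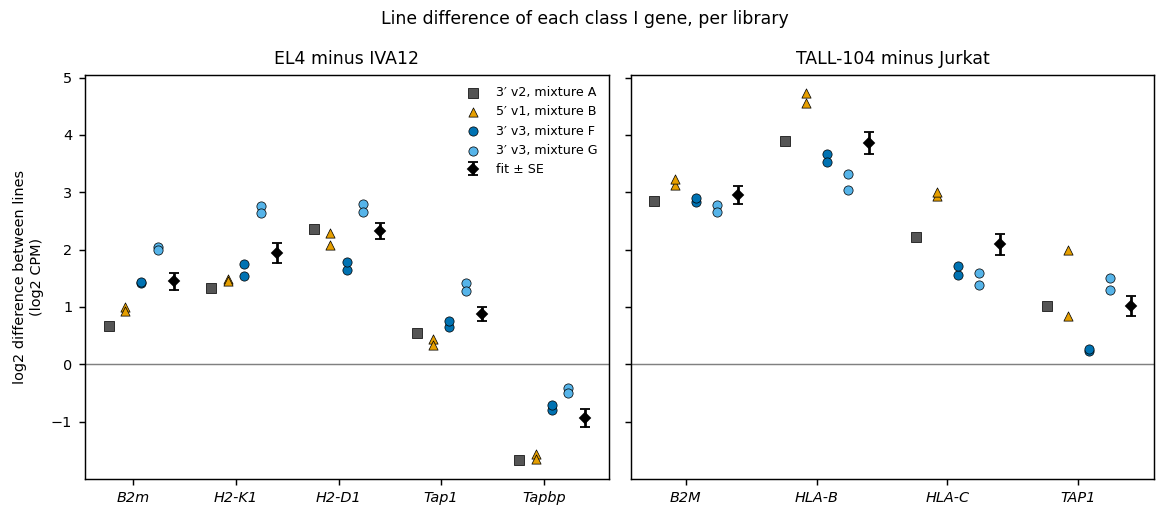
Log2 difference of each class I gene between the lines of a species within each library (points, coloured by kit and cell mixture), with the fitted difference ± SE (diamonds). Values above 0 are higher in EL4 (left) or TALL-104 (right), and Tapbp alone lies below 0, in 7 of 7 libraries.

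All 4 human genes passed the test, where 65.2% of the 10228 human genes tested did, 30.9% higher and 34.3% lower in TALL-104. By absolute size, HLA-B lay above 94.3% of the genes tested, B2M above 91%, HLA-C above 85.5% and TAP1 above 65.3%, with a median over all genes of 0.69. Without the library that stood apart, replicate 3 of 3′ v3, the log2 differences were 2.93 for B2M, 3.88 for HLA-B, 2.12 for HLA-C and 1.17 for TAP1, and all 4 still passed. A stricter limit of 95% for the share of 1 species left 3 TALL-104 barcodes in that library and gave 2.55, 3.50, 1.83 and 1.09. All 18 alternative fits kept the direction and the call of each gene.

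The share of a cell's RNA and the number of molecules in a cell gave different pictures of the human lines, because a TALL-104 barcode held far fewer UMIs. B2M came to 18 to 35.6 UMIs per TALL-104 barcode and 11.7 to 32.7 per Jurkat barcode, with a median ratio of 1.46 and TALL-104 higher in 5 of 7 libraries. HLA-B was higher per TALL-104 barcode in 7 of 7 libraries, with a median ratio of 2.34. HLA-C was higher per TALL-104 barcode in 3 of 7 libraries, with 1.5 to 3.67 UMIs against 1.85 to 5.03 in Jurkat. TAP1 turned round: a Jurkat barcode held 2.31 times as many TAP1 UMIs at the median, and 1.51 to 8.35 times as many over the 7 libraries. In the mouse lines the direction was the same on both scales in 7 of 7 libraries for all 5 genes, with median ratios of EL4 over IVA12 per barcode of 2.03 for B2m, 2.88 for H2-K1, 5.17 for H2-D1, 1.33 for Tap1 and 0.438 for Tapbp. Barcodes cover what the kit captured and not the whole RNA of a cell, and a difference in cell size and a difference in capture cannot be told apart. Only barcodes of at least 1000 UMIs were counted, and TALL-104 lay nearest this limit, with library medians of 1929 to 2761.5 UMIs. Cells under the limit are not in these values per barcode. How far the human ratios per barcode depend on it was not tested.

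**Figure D3:**
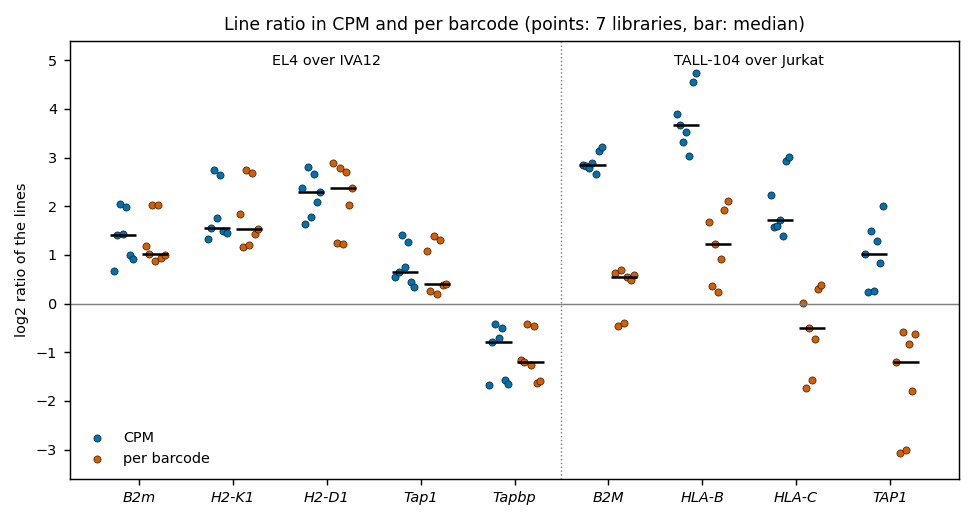
Log2 ratio of the lines for each class I gene in each of 7 libraries, in CPM (blue) and per barcode (orange), with the median (bar). The 2 scales give the same sign for the 5 mouse genes, while TAP1 lies above 0 in CPM and below 0 per barcode in 7 of 7 libraries.

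The proportion of the heavy chain genes was clearly apart between the human lines and less so between the mouse lines. HLA-B gave 1.36 to 2.36 times the UMIs of HLA-C in TALL-104 and 0.423 to 0.749 times in Jurkat, with no overlap. H2-K1 over H2-D1 was 0.783 to 1.21 in EL4 and 1.14 to 1.61 in IVA12, and within a library IVA12 was above EL4 in 7 of 7. The mouse gap came mostly from 5′ v1 and 3′ v2, since in 3′ v3 the lines were at 1.11 to 1.21 and 1.14 to 1.29. B2m over the sum of H2-K1 and H2-D1 was also higher in IVA12 in 7 of 7 libraries, at 0.911 to 2.45 against 0.727 to 1.11 in EL4. In human the corresponding ratio of B2M turned with the kit, at 2.66 to 5.08 in TALL-104 and 2.11 to 6 in Jurkat. TALL-104 was higher in all 4 libraries of 3′ v3 and lower in both of 5′ v1 and in 3′ v2. No test was run on these ratios, which compare lines and not genes, since capture and mapping differ between genes. Whether mapping differs between lines as well was not tested.

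The lists of related genes are given by counts and medians, to be read beside the shares over all genes, 39% higher and 37.9% lower in mouse and 30.9% and 34.3% in human. Of 20 mouse heavy chain and class I-like genes in the reference, 15 were tested, and 11 were higher in EL4, 3 lower and 1 not called, with a median log2 difference of 1.94, against 0.0044 over all genes. Without H2-K1 and H2-D1 it was 1.29 over the other 13. Of those with the same direction in every library, the widest differences among the higher ones were H2-Q2, at 123 to 212 CPM in EL4 and 1.72 to 11.3 in IVA12, and H2-Q4, at 39.1 to 133 against 5.52 to 50.1. Hfe, a relative that regulates iron uptake and was as wide as H2-Q2, was at 1.95 to 3.74 in EL4 and at most 0.134 in IVA12. H2-Q6 and H2-T24, which are non-classical heavy chains, were higher in IVA12, at 3.07 to 104 and 6.93 to 18.6 CPM against at most 0.507 and 1.13 in EL4.

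Of the 19 human genes of that list 15 were tested, and 6 were higher in TALL-104, 6 lower and 3 not called, with a median of -0.18, against -0.05 over all genes. The 6 lower ones were FCGRT, the heavy chain of an antibody receptor, and the 5 CD1 genes, whose products present lipids and mark immature thymocytes. In Jurkat CD1E was at 231 to 490 CPM, CD1A at 44.9 to 98.9, CD1D at 24.8 to 43.6, CD1B at 29.8 to 47.3 and CD1C at 18.3 to 36. In TALL-104 CD1E was at most 15.2 and each of the other 4 at most 4.72, on 1 to 18 UMIs over all libraries. Beside HLA-B and HLA-C, the higher ones included HLA-E, HLA-F and MR1, by log2 differences of 3.64 ± 0.19, 3.56 ± 0.19 and 2.15 ± 0.17 (SE). The stress ligand genes MICA, MICB and ULBP2 did not pass, at 0.54 ± 0.34, -0.18 ± 0.23 and -0.51 ± 0.28. FCGRT, the HLA genes other than HLA-B and HLA-C, MR1 and these 3 were named after their values were seen.

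Of the 9 mouse genes of the peptide loading list, 3 were higher in EL4, 4 lower and 2 not called, with a median of -0.45. Tap2, the partner of Tap1 in the transporter, rose most, to 64.3 to 125 CPM in EL4 against 8.63 to 21.2 in IVA12. Tapbpl, a relative of tapasin that edits peptides, was at 3.09 to 5.34 in EL4 and 29.4 to 41.4 in IVA12, and Calr, the chaperone calreticulin, at 103 to 458 against 517 to 738. In human 6 of the 9 were higher in TALL-104, 1 lower and 2 not called, with a median of 1.36. TAPBP was at 108 to 392 CPM in TALL-104 and 34.9 to 62.2 in Jurkat, so the tapasin gene was higher in the line with more HLA there, unlike in mouse. TAPBPL was at 16.6 to 54.2 against 8.09 to 11.1, PDIA3, a thiol oxidoreductase of the loading complex, at 158 to 496 against 63.5 to 196, and SEL1L, a part of the degradation machinery, at 24.9 to 84.7 against 14.8 to 34.9. SEL1L did not pass with the 5′ v1 libraries alone (adjusted p of 0.13 in edgeR).

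The peptide supply list held proteasome subunits and peptidases. In mouse 4 of 14 were higher in EL4, 8 lower and 2 not called, with a median of -0.35, and over all genes 77% were called. The immunoproteasome subunits Psmb8 and Psmb9 were higher, at 216 to 393 and 157 to 282 CPM against 55.2 to 147 and 31.4 to 107, as was the trimming peptidase Lnpep, at 9.33 to 33.1 against 4.14 to 10. Psme1, a subunit of the proteasome activator, and the peptidase Thop1 were lower, at 61.1 to 240 and 10.4 to 49.6 against 336 to 670 and 55.2 to 109. In human 6 of 15 were higher in TALL-104, 4 lower and 5 not called, with a median of 0.11, where 65.2% of all genes were called. PSMB10, an immunoproteasome subunit, and the trimming peptidases LNPEP and ERAP1 were higher, by log2 differences of 1.19 ± 0.17, 1.02 ± 0.14 and 0.74 ± 0.18 (SE), and the peptidases BLMH and THOP1 lower, by -0.9 ± 0.17 and -1.503 ± 0.19. PSMB10 lost its call without the library as a block (adjusted p of 0.0825 in edgeR) and BLMH with the 5′ v1 libraries alone (0.689). PSMB8 and PSMB9, named after their values were seen as the human counterparts of Psmb8 and Psmb9, did not pass in human, at -0.27 ± 0.16 and 0.31 ± 0.15 (adjusted p of 0.153 and 0.0773 in edgeR).

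Of the 18 transcription factors known to act on class I genes, 8 were higher in EL4, 8 lower and 2 not called, with a median of 0.02, and the genes as a whole were split about evenly too. Nlrc5, the class I activator, was at 6.63 to 26.2 CPM in EL4 and 1.63 to 4.43 in IVA12, Nfkb1 at 64.8 to 111 against 8.97 to 30.4, and Creb1 at 26.3 to 51 against 2.42 to 8.37. Irf8 was at 4.85 to 11.2 in EL4 and at most 0.143 in IVA12. Atf1 was lower, at 90.4 to 187 against 244 to 422. In human 8 of 17 were higher in TALL-104, 6 lower and 3 not called, with a median of 0.19. RELB, IRF2 and IRF1 were higher, by log2 differences of 2.95 ± 0.23, 1.86 ± 0.14 and 1.20 ± 0.16 (SE), and EZH2, part of a repressor complex, was lower, by -2.10 ± 0.18. NLRC5, named after its values were seen, was at a median of 15.2 CPM in TALL-104 and 17.1 in Jurkat, and 3 of 7 libraries had the direction of its fitted log2 difference of 0.49 ± 0.21, which passed narrowly (adjusted p of 0.0461 in edgeR).

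Class II genes other than Cd74 were at most 9.15 CPM in the mouse lines, and the human ones were at most 6.94. In mouse 4 of 10 had enough counts to be tested. Cd74, the class II invariant chain, was higher in IVA12, at 49.1 to 158 CPM against at most 3.96 in EL4, and H2-DMa was higher too, at 2.27 to 3.27. H2-Eb1 and H2-Oa were higher in EL4, at 1.02 to 4.67 and 1.87 to 9.15 against at most 1.34 and 0.161. None of the 12 human genes could be tested between the lines. Between the kits in Jurkat 6 could, and HLA-DOB, named after its values were seen, was higher in 3′ v3, at 0.605 to 1.49 CPM against at most 0.076 in 5′ v1 (adjusted p of 0.018 in edgeR). It missed without either 5′ v1 library (0.114 and 0.115). Ciita and CIITA, the class II activator, were at most 0.542 and 0.694 CPM.

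**Figure D4:**
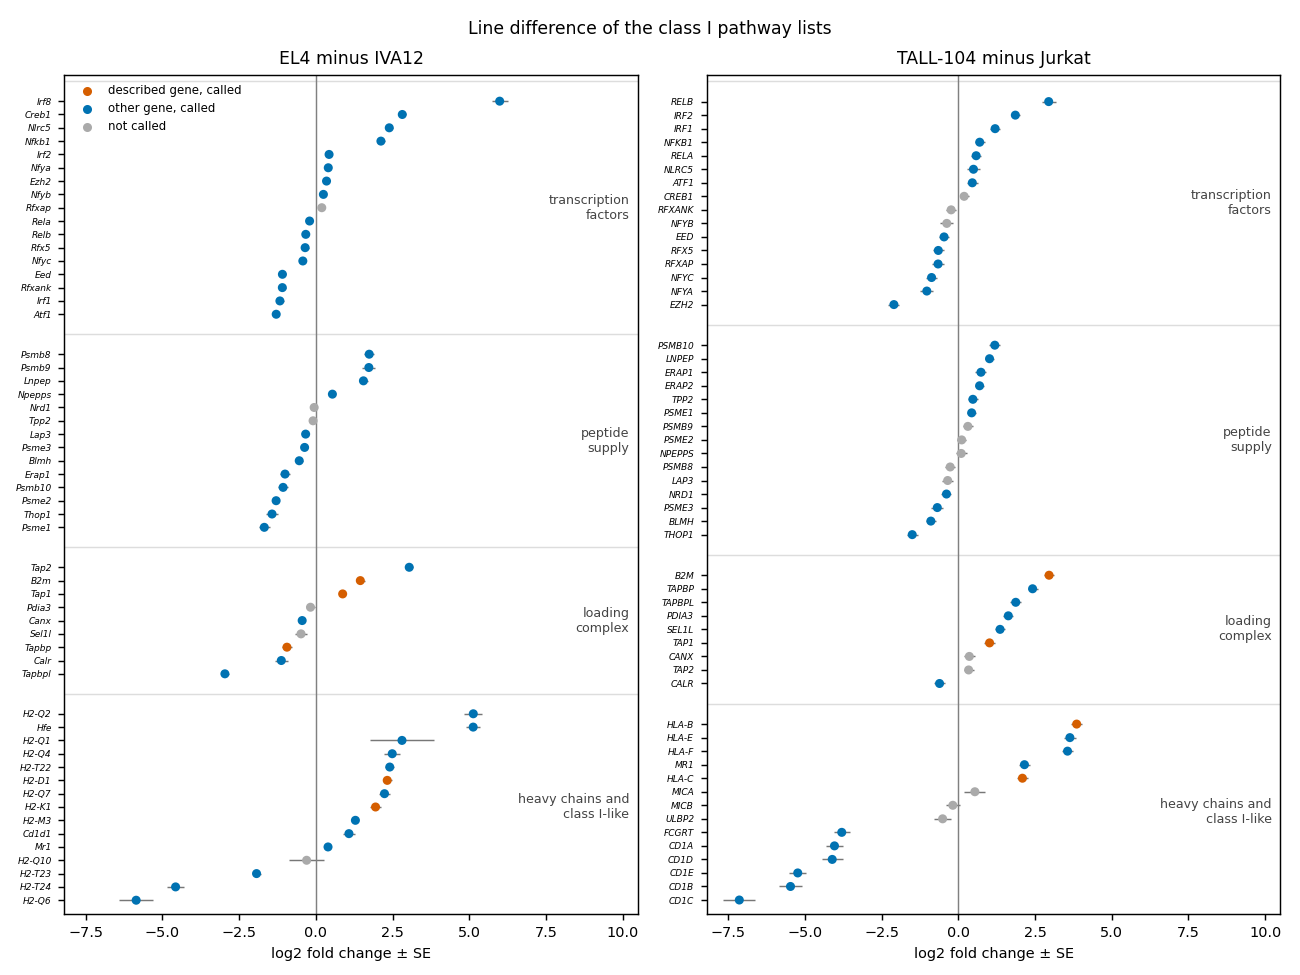
Fitted log2 difference ± SE between the lines for tested genes of the 4 class I lists, EL4 minus IVA12 (left) and TALL-104 minus Jurkat (right), with the genes described here in orange, other genes that passed an adjusted p of 0.05 in blue and the rest in grey. In mouse the heavy chains lie mostly to the right and the loading genes on both sides, and in human the HLA genes lie to the right and the CD1 genes to the left.

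The kits were compared within each line, 4 libraries of 3′ v3 against 2 of 5′ v1, while the 3′ v2 library gives values only. It was the lowest of 7 in 13 of the 18 pairs of a gene and a line. How often it was lowest over all genes was not counted, so this number is no result about these genes. A 3′ kit reads the end of the messenger RNA that holds the poly-A tail and a 5′ kit the other end. The kits came from different cell mixtures, so a kit and a mixture cannot be told apart. The 6 libraries stand for 3 mixtures, 2 libraries each, and the tests take them as independent, which gives p-values that can be too small. In Jurkat HLA-B was 2.41-fold higher in 3′ v3 than in 5′ v1 and HLA-C 1.87-fold. Their log2 differences were 1.27 ± 0.27 and 0.90 ± 0.22 (SE), with adjusted p of 0.0224 and 0.0335 in edgeR. Over all 14131 genes tested in Jurkat, 17.5% passed, 8.48% higher and 9.02% lower in 3′ v3, against 2 of these 4. Neither passed without 1 of the 5′ v1 libraries: adjusted p rose to 0.137 and 0.23 for HLA-B and to 0.193 and 0.322 for HLA-C without replicates 1 and 2. Those fits hold 1 library of 5′ v1, which is taken to vary like the 3′ v3 libraries of 2 mixtures. A lost call there does not by itself measure a smaller difference. The log2 differences were larger without replicate 1, at 1.53 for HLA-B and 1.09 for HLA-C, and smaller without replicate 2, at 1.03 and 0.72. HLA-C also missed without replicate 2 or 3 of 3′ v3, at 0.0508 and 0.0593, and with no filter on low counts, at 0.0781.

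No other gene passed this kit test in edgeR, and the calls made under other settings are given below. In EL4 0 of 5 did, with 0 at an unadjusted p under 0.05 and 0 in DESeq2, where 36.7% of 12221 genes passed, 19.2% higher and 17.5% lower. In IVA12 0 of 5 did (Tapbp alone at an unadjusted p under 0.05 and in DESeq2), where 9.66% of 12053 passed, 4.69% higher and 4.97% lower. In TALL-104 0 of 4 did, with 0 unadjusted and 0 in DESeq2, where 4.32% of 8929 passed, 2.36% higher and 1.96% lower. With 2 libraries of 5′ v1, a gene that did not pass may still differ. Tapbp in IVA12 came nearest. It was at 52.6 to 66.1 CPM in 3′ v3 and 100 to 106.3 in 5′ v1, with no overlap, a log2 difference of -0.79 ± 0.21 (SE) and an adjusted p of 0.0587 in edgeR. DESeq2 put it at 0.0164, edgeR with library totals in place of TMM factors at 0.0204, and edgeR with at most 10% mitochondrial UMIs in a barcode at 0.0451. H2-K1 in EL4 was higher in 3′ v3, at 713 to 902 against 553 to 624, by 0.41 ± 0.26 (SE), with an adjusted p of 0.249, or 0.0456 with library totals. HLA-C in TALL-104 was lower in 3′ v3, at 768 to 881 against 1062 to 1213, by -0.34 ± 0.30 (SE), with an adjusted p of 0.548. In 9 of the 18 pairs of a gene and a line the 2 kits did not overlap. The share over all genes was not counted, so this number is no result about these genes.

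Of the heavy chain and class I-like list in IVA12, 6 of the 14 tested were lower in 3′ v3, and the other 8, H2-K1 and H2-D1 among them, did not pass, where 4.97% of all genes were lower. None of the 6 passed without 5′ v1 replicate 1, at adjusted p of 0.056 to 0.227 in edgeR. H2-Q6 was at 3.07 to 8.09 CPM in 3′ v3 and 77.2 to 104 in 5′ v1, and H2-Q1 at 0.0894 to 0.538 against 14.6 to 17.9. H2-Q4 was at 5.63 to 13.6 against 45.9 to 50.1, H2-Q10 at 0.638 to 1.17 against 5 to 6.69, H2-Q2 at 2.68 to 4.74 against 10.46 to 11.3 and H2-T22 at 10.9 to 15.4 against 32.1 to 32.5. In EL4 2 of 15 were lower and 2 higher, where 36.7% of all genes passed, and the widest was H2-T22, at 53.3 to 61.3 against 196 to 235. The 2 higher ones, H2-Q7 and H2-Q10, were named after their values were seen. H2-Q10 lost its call with any library left out, and H2-Q7 with some libraries of either kit left out. Their log2 differences then ran from 0.40 to 0.53 for H2-Q7 and from 0.59 to 1.03 for H2-Q10. These genes share long stretches with H2-K1 and H2-D1, and how reads of the 2 ends divide among them was not tested. In Jurkat MR1 and HLA-F were higher in 3′ v3 beside HLA-B and HLA-C, 4 of 17 where 17.5% of all genes passed, and both missed without either 5′ v1 library (adjusted p of 0.144 to 0.15 and 0.201 to 0.204). The other 13 did not pass, with a median of 0.21 over the 15 without HLA-B and HLA-C. In TALL-104 0 of 8 passed. Of the peptide loading list in EL4, 2 of 9 were higher in 3′ v3 and 1 lower, and of the peptide supply list 6 of 14 and 1. Over all genes 19.2% were higher and 17.5% lower. Calr and Thop1 were among the higher ones, with log2 differences of 1.69 to 1.97 and 1.89 to 2.14 with a library left out. In IVA12 0 of 9 and 0 of 14 passed. TAP2, the transporter partner, was at 23.9 to 30.4 against 7.75 to 8.09 in Jurkat, a log2 difference of 1.67 ± 0.19 (SE), which missed without either 5′ v1 library (adjusted p of 0.0695 and 0.065 in edgeR).

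Within 3′ v3 many of the levels differed between the cell mixtures. With 2 libraries each, mixtures F and G did not overlap in 14 of the 18 pairs of a gene and a line. No test was run, and the share over all genes was not counted, so this number is no result about these genes. The 2 libraries of mixture F, or of G, differed by at most 1.24-fold, and the mixtures by up to 2.47-fold. In 5′ v1 the 2 libraries of mixture B were further apart for TAP1 in TALL-104, at 51.9 and 108 CPM on 11 and 10 UMIs. In IVA12 H2-K1 was 2.47-fold higher in mixture F than in G, H2-D1 2.31-fold and B2m 1.54-fold, while Tap1 and Tapbp were 1.25-fold and 1.17-fold higher. In EL4 the same ratios were 1.20 for H2-K1, 1.14 for H2-D1, 1.02 for B2m, 0.805 for Tap1 and 0.947 for Tapbp. In the human lines B2M was higher in mixture F, 1.496-fold in TALL-104 and 1.36-fold in Jurkat, and HLA-B was higher in mixture G, 1.296-fold and 1.74-fold. TAP1 was 2.07-fold higher in mixture G in TALL-104 and about level in Jurkat (0.935). Median mitochondrial shares moved with the mixture in Jurkat, 6.26% and 4.75% in F against 10.1% and 10.2% in G, and so did median UMIs, 17444 and 17902.5 against 10913 and 10075. In IVA12 the mitochondrial shares were 5.92% and 4.45% against 6.52% and 7.15%, and the median UMIs 31126 and 30259 against 27871 and 26454.5. In TALL-104 the mitochondrial shares were 7.88% and 4.84% against 9.29% and 9.38%, the mouse UMIs 6.21% and 15.3% against 2.24% and 6.65%, and the median UMIs 1929 and 2125.5 against 2631 and 2430. In EL4 the mitochondrial shares were 5.46% and 3.85% against 6.52% and 6.8%. The part of these values in the differences was not tested.

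Against the same 5′ v1 libraries, the kit difference changed with the mixture taken. In IVA12 H2-K1 was 0.56 higher on the log2 scale in the 3′ v3 libraries of mixture F and fell by 1.01 in those of mixture G. H2-D1 did likewise, 0.74 higher and -0.73. B2M in Jurkat was at 0.54 and -0.24. These 3 genes passed with each mixture, in opposite directions (adjusted p of 0.0003 and 7.25e-12 for H2-K1, 8.73e-05 and 1.43e-08 for H2-D1, and 0.00629 and 0.0315 for B2M in edgeR). HLA-B and HLA-C in Jurkat passed with either mixture in 1 direction, by 1.05 and 1.52 for HLA-B and by 0.98 and 0.89 for HLA-C. Tapbp in IVA12 was lower with both, at -0.56 and -1.04 (adjusted p of 0.000183 and 3.19e-12), and so was B2m, at -0.24 and -1.12 (0.036 and 3.74e-13). With mixtures F and G the calls came to 3 and 3 of 5 in EL4, where 66.4% and 70.8% of all genes passed, and to 4 and 5 of 5 in IVA12, where 60.2% and 66.9% did. In Jurkat they came to 4 and 3 of 4, against 59.8% and 72.9%, and in TALL-104 to 0 and 2 of 4, against 17.9% and 34.6%. These fits hold 2 libraries on each side, each from 1 mixture, so their error covers libraries of 1 mixture and not the spread between mixtures.

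**Figure D5:**
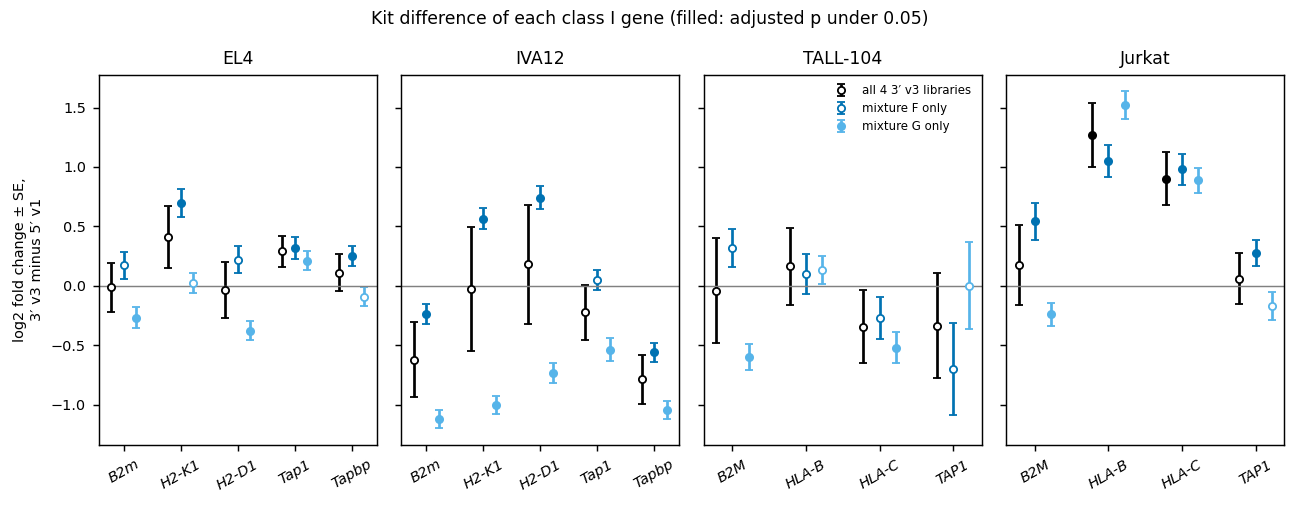
Fitted log2 difference ± SE between 3′ v3 and 5′ v1 for each class I gene in each line, with all 4 3′ v3 libraries (black) and with those of mixture F (dark blue) or G (light blue) alone, filled where the adjusted p was under 0.05. HLA-B and HLA-C in Jurkat lie above 0 in all 3 fits, while H2-K1 and H2-D1 in IVA12 lie above 0 with mixture F and below 0 with mixture G.

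Whether the line difference itself changed with the kit was tested as an interaction. In mouse 2 of 5 genes passed, against 30.6% of 13176 genes tested (17.2% higher, 13.4% lower). The EL4 excess of B2m was larger in 3′ v3 than in 5′ v1, by 0.63 ± 0.16 (SE) on the log2 scale (adjusted p of 0.015 in edgeR), and it missed without 5′ v1 replicate 1 or 2 (0.0966 and 0.143). The IVA12 excess of Tapbp was smaller in 3′ v3, by 0.88 ± 0.12 (adjusted p of 0.000614), and passed in all 15 alternatives. The values for H2-K1, Tap1 and H2-D1 were 0.57 ± 0.28, 0.50 ± 0.19 and -0.10 ± 0.27, with adjusted p of 0.145, 0.0704 and 0.811. H2-K1 and Tap1 passed without replicate 1 of 3′ v3 (0.0208 and 0.0195), with no filter on low counts (0.0397 and 0.028) and with mixture G alone (1.39e-10 and 1.85e-06). Tap1 also passed with at most 10% mitochondrial UMIs (0.0244). H2-D1 passed with each mixture alone in opposite directions, at -0.56 with F and 0.34 with G (0.000112 and 0.00394). In all, 3 of 5 passed with mixture F and 5 of 5 with mixture G, where 40.9% and 47.2% of all genes did.

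In human 2 of 4 genes passed, against 1.32% of 12121 genes tested (0.322% higher, 0.998% lower). By absolute size HLA-C lay above 73.2% of the genes tested and HLA-B above 70.2%. The 5′ v1 side of TALL-104 rests on 70 and 30 barcodes with 211830 and 92258 human UMIs. HLA-C had 257 and 98 of these UMIs and HLA-B 383 and 144. At this depth sparser genes may differ and not pass, so 2 of 4 against 1.32% does not set these genes apart. The TALL-104 excess of HLA-C was smaller in 3′ v3 than in 5′ v1, by -1.35 ± 0.23 (SE, adjusted p of 0.00566 in edgeR), and that of HLA-B by -1.20 ± 0.26 (0.0229). In Jurkat HLA-C and HLA-B were higher in 3′ v3, as given above, while in TALL-104 their kit differences were -0.34 ± 0.30 and 0.16 ± 0.33 and did not pass. Both missed without 5′ v1 replicate 1 or 2 (0.349 and 0.216 for HLA-C, 0.453 and 0.383 for HLA-B), and over all genes those fits called 2 and 2. HLA-B also missed without replicate 2 or 4 of 3′ v3 (0.0796 and 0.0798), the libraries of mixture G, and with at most 10% mitochondrial UMIs in a barcode (0.0592). B2M and TAP1 did not pass, at -0.33 ± 0.29 and -0.48 ± 0.46 (adjusted p of 0.714 and 0.748). With mixture F 2 of 4 passed and with mixture G 3 of 4, where 4.52% and 10.3% of all genes did.

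To compare detection in single barcodes at 1 depth, each barcode of at least 1000 UMIs of all genes was thinned to 1000. B2M was then found in 99.5% to 100% of TALL-104 barcodes and 55.7% to 80% of Jurkat barcodes. HLA-B was found in 43.9% to 79.8% and 4.55% to 21.3%, and HLA-C in 34.1% to 75.7% and 12.5% to 26.1%. TAP1 was sparse in both, at 0% to 13.3% and 1.73% to 3.44%, and the 0% is 0 of 41 barcodes of 3′ v2 at this depth, which allows a share of up to 8.6% with a UMI (exact 95% limit), while 9.76% of the same barcodes held one without thinning. In the mouse lines, which cannot express human genes, B2M appeared in up to 12.4% of thinned EL4 barcodes and up to 3.82% of IVA12 barcodes, and HLA-B in at most 1.11% and 0.704%. TAP1 appeared in at most 0.29% of EL4 barcodes, below the lowest share in Jurkat and below those of the TALL-104 libraries other than 3′ v2, where the 0% is not above this background.

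Among the mouse genes, B2m was found in 63.6% to 71.1% of EL4 and 22.2% to 55.4% of IVA12 barcodes, H2-K1 in 33.4% to 55.7% and 10.9% to 26.1%, and H2-D1 in 43% to 52.9% and 8.18% to 24.4%. Tap1 was found in 2.89% to 5.45% and 2.41% to 3.25%. Tapbp was found in 3.4% to 5.11% of EL4 and 4.53% to 15.1% of IVA12 barcodes. The background in Jurkat reached 3.24% for B2m, 2.39% for H2-K1, 2.26% for H2-D1 and 0.262% for both Tap1 and Tapbp, and in TALL-104 7.52% for B2m and 4% for each heavy chain. Median depths were 22812 to 27968.5 UMIs in EL4, 10896 to 31126 in IVA12, 10075 to 18522 in Jurkat and 1929 to 2761.5 in TALL-104. Without thinning, B2m was found in 92.9% to 99.8% of EL4 barcodes and 91% to 98.5% of IVA12 barcodes, and in Jurkat, which cannot express it, in 1.88% to 35.8%.

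The spread between cells of a line is given as the variance over the mean, which is 1 for pure counting and nears 1 for any gene as its mean falls, so genes of unlike level are not ranked by it. At 10000 UMIs in a barcode it had a median over libraries of 2.03 for B2m in EL4 and 2.05 in IVA12, of 1.95 and 2.13 for H2-K1, of 1.502 and 2.04 for H2-D1, of 1.14 and 1.23 for Tap1 and of 1.08 and 1.21 for Tapbp. In Jurkat it was 2.26 for B2M, 1.85 for HLA-B, 1.43 for HLA-C and 1.05 for TAP1. TALL-104, thinned to 2000 UMIs, gave 1.99, 1.52, 1.17 and 0.948, at another depth and so on another scale. Barcodes under these depths were left out, so the values describe the deeper barcodes of each line. Left out were 2760 in EL4 beside 8145 kept, and 1042 in IVA12 beside 4787. In Jurkat 1487 were left out beside 6618 kept, and in TALL-104 917 beside 1749. In EL4 the 5′ v1 libraries stood apart, with no test: H2-K1 was at 8.29 and 7.02 there and at 1.55 to 2.26 in the other 5 libraries, and H2-D1 at 3.54 and 4.13 against 1.38 to 1.62. In the 87 IVA12 barcodes of 3′ v2, B2m was at 6.63 and H2-K1 at 4.28.

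Across cells of 1 line and library, thinned to the same depth and with the same barcodes left out, the classical genes varied together weakly. Spearman's rho between H2-K1 and H2-D1 had a median of 0.264 in EL4 and 0.335 in IVA12 over 7 libraries, and between B2m and H2-K1 of 0.19 and 0.321. In Jurkat it was 0.286 for B2M with HLA-B, 0.266 for B2M with HLA-C and 0.251 for HLA-B with HLA-C, and in TALL-104 0.292, 0.12 and 0.207 over 21 to 656 barcodes in a library. Pairs with Tap1 or Tapbp were at a median of at most 0.088 in EL4 and at most 0.184 in IVA12. In counts this sparse such values describe the cells and find no relation, and cells of a library share its background RNA.

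The genes with the profile most like the mean of the mouse genes over 14 profiles (7 libraries in 2 lines, Pearson's r of log2 levels, 5348 genes of at least 20 CPM ranked) were Ass1 (0.968), H2-Q7 (0.963), Clic1 (0.957), Def6 (0.956) and Psmb8 (0.955). H2-Q7 was at 53.3 to 94.5 CPM in EL4 and 11.1 to 24.2 in IVA12. For the human genes STOM (0.994), CD37 (0.994), CCND2 (0.989) and CD96 (0.989) were among the closest 5 of 6431 ranked. With 2 lines a species, any gene that separates them ranks high.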

How the data were processed

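The authors downsampled the reads of each library, aligned them with STAR in Cell Ranger 3.0.2 (the version in the file headers; the submitters' processing notes also name 1.2.0) to a combined hg19 and mm10 reference, and deposited raw UMI counts per gene and barcode for all barcodes, with libraries kept apart. Only uniquely aligned reads are counted, which can move reads of near-identical MHC genes. Total counts were 24790710 to 251164949 UMIs per library and set the precision of sparse genes.

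From these counts, cells were called at 1000 UMIs and over 80% from 1 species. EL4 needed Lgals1, S100a6 and Perp at 5 times or more Epcam, Cd24a, Ctss and Ckap4, and IVA12 the reverse. TALL-104 needed NKG7, CST7 and CD8A at 0.1% of UMIs or more, and Jurkat under 0.02%. Barcodes with both species or in between were left out, and no doublet caller was run. The labels' 8 libraries were grouped by kit from their titles. Nothing states separate cultures for the libraries, so p-values measure the spread between libraries, which may be technical. Libraries of the same cell mixture are taken as independent in the line and interaction tests too, so their p-values and SEs can be too small.

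UMIs were summed per library and line and tested with edgeR 4.0.16 (quasi-likelihood, TMM factors, filterByExpr, two-sided, Benjamini-Hochberg over all genes tested, threshold 0.05). The line comparisons had the library as a block, since both lines come from the same library and so pair by design. The kit comparisons had no covariate. The study tested single cells with a hurdle model, which takes cells as replicates, so it was not used. The script was first tested on simulated counts. Of 100 genes changed 2-fold, the line tests recovered 83 in mouse and 75 in human. The kit tests recovered 32 in EL4, 14 in IVA12, 6 in Jurkat and 8 in TALL-104. The interactions recovered 53 in mouse and 9 in human. Unchanged genes called in the mouse and human line tests numbered 9 and 20, beside 183 and 175 calls among genes changed 2-fold or 16-fold. In the interactions they numbered 9 and 12, beside 142 and 80. SE was the log2 difference over the square root of F. DESeq2 1.42.0 was an alternative, with other scalings, filters, cell limits and libraries left out. Detection used thinned barcodes, leaving out those under the depth. Intervals cover counting error only.

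Besides the 9 genes, those named came from the lists (at most 5 called genes per list by absolute log2 difference, with the same sign in every library) and from the profile ranking. Exceptions are marked. Members and lists were chosen with earlier results of these data known. Some genes counted in the lists are not reported here by name.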

Additional observations from a re-analysis of the deposited data

Results flagged for a closer look

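For 4 genes the line difference differed between the 3′ v3 and 5′ v1 kits in the interaction test. They were 2 of 5 mouse genes, where 30.6% of all genes tested passed, and 2 of 4 human genes, where 1.32% did. Of the 4, only Tapbp passed in every alternative. On the log2 scale B2m differed by 0.63 and Tapbp by 0.88 in the mouse lines (EL4 minus IVA12), and HLA-C by -1.35 and HLA-B by -1.20 in the human lines (TALL-104 minus Jurkat). With the 3′ v3 libraries of mixture F alone the values were 0.38, 0.77, -1.20 and -0.91, and with those of mixture G alone 0.85, 0.95, -1.38 and -1.35. The 5′ v1 libraries came from a mixture of their own, so kit and mixture cannot be told apart.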

How the results depend on the processing

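All 9 genes kept their direction and passed the test in the line comparisons under all 18 alternatives, with log2 differences of 1.17 to 1.77 for B2m, 1.68 to 2.22 for H2-K1, 2.23 to 2.43 for H2-D1, 0.60 to 1.06 for Tap1, -1.40 to -0.56 for Tapbp, 2.55 to 3.14 for B2M, 3.50 to 4.59 for HLA-B, 1.70 to 2.93 for HLA-C and 0.81 to 1.26 for TAP1. Both lines of a library share it, so the library pairs them by design. Without that block the values were 1.36, 1.86, 2.23, 0.85 and -1.01 in mouse and 2.99, 3.76, 2.06 and 1.09 in human, PSMB10 lost its call, no call of the 9 genes changed, and 6944 mouse and 5202 human genes passed in place of 9034 and 6670. The kit comparisons hold different libraries and have no block. With 5′ v1 alone 3231 human genes passed, and leaving out a library gave 8683 to 9248 mouse and 5824 to 6839 human genes. The stricter species limit lowered the share of human calls that were higher in TALL-104 from 47.4% to 37.3%.

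The kit counts depended on the libraries. In EL4 4480 genes passed, 1063 to 4347 with a library left out, 7906 with mixture F and 8210 with mixture G. In IVA12 1164 passed, 2002 in DESeq2, 18 to 846 with a library left out, and 7025 and 7711 with mixtures F and G. In Jurkat 2473 passed, 113 to 2156 with a library left out, and 8210 and 9434 by mixture. In TALL-104 386 passed, 706 with no filter, 233 with the stricter species limit, 9 to 628 with a library left out, and 1303 and 2247 by mixture. The lowest counts were those without a 5′ v1 library in each line. For the mouse interaction 4036 passed, 1452 to 4330 with a library left out and 6073 with mixture G, and for the human one 160, 290 with no filter, 2 to 355 with a library left out, and 577 and 1214 by mixture. With library totals in place of TMM factors the share of higher calls went from 54.7% to 40.8% in TALL-104 and from 56.3% to 69.5% in the mouse interaction, and the median of all mouse interaction values from 0.02 to 0.13.

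The following kit differences turned sign, and the cause was not tested. In EL4 B2m (-0.01) was at 0.0404 with library totals, 0.0077 with no filter, 0.0041 with the stricter species limit, 0.0041 without barcodes over 10 times the median UMIs (an alternative chosen after seeing the data), 0.17 with mixture F and -0.12 to 0.10 with a library left out. H2-D1 (-0.03) was at 0.0094 with library totals, 0.0038 with at most 10% mitochondrial UMIs, 0.22 with mixture F and -0.16 to 0.0831 with a library left out, and Tapbp (0.11) at -0.0916 with mixture G. In IVA12 H2-K1 (-0.02) was at 0.56 with mixture F and -0.29 to 0.20 with a library left out, H2-D1 (0.18) at -0.73 with mixture G and -0.0442 to 0.39, and Tap1 (-0.22) at 0.0509 with mixture F. In Jurkat B2M (0.17) was at -0.24 and TAP1 (0.06) at -0.17 with mixture G, and TAP1 at -0.0447 to 0.17 with a library left out. In TALL-104 B2M (-0.04) was at 0.0676 with no filter, 0.32 with mixture F and -0.25 to 0.16 with a library left out, HLA-B (0.16) at -0.27 with the stricter species limit, and TAP1 (-0.33) at 0.00088 with mixture G and -0.77 to 0.16. In the interactions H2-D1 (-0.10) was at 0.0197 with library totals, 0.0116 with at most 10% mitochondrial UMIs, 0.34 with mixture G and -0.26 to 0.0647 with a library left out, and TAP1 (-0.48) at 0.19 with mixture G and -0.87 to 0.24. Depth was lowest in TALL-104.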
